A study of Homo sapiens with 12 samples.

Results

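The translation initiation and elongation factors are the 52 genes, of 19504 named rows in the deposited count table, whose symbols start with EIF1, EIF2, EIF3, EIF4, EIF5, EIF6, EEF1 or EEF2. Kinases of eIF2, eIF4E-binding proteins, EIF4ENIF1, EEF1E1, the EEF1AKMT enzymes, EEF2K, EEF2KMT, antisense rows and pseudogene rows were left out, which gave 55 rows. Of these, EIF4E3, EIF4E1B and EIF2S3B had fewer than 100 counts over the 12 libraries and were dropped. All of the 52 that remained passed the filter on low counts. By name and role, 5 were placed in start codon selection and scanning, 5 in eIF2 and the delivery of initiator tRNA, 5 in eIF2B, 14 in eIF3, 10 in eIF4, 3 in subunit joining and 9 in elongation. A place in a subgroup need not mean that role. The scanning subgroup holds EIF1AD, an eIF1A-like protein, and eIF4 holds EIF4A3, of the exon junction complex. EEF1AKNMT, a methyltransferase of eEF1A that the symbol rule lets in, is counted but stands outside these subgroups.

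RNA came from MV4-11 cells with 5 nM AC220, MV4-11 cells with DMSO, OCI-AML3 cells with 5 nM AC220 and OCI-AML3 cells with DMSO, 3 libraries each, all at 24 h. MV4-11 and OCI-AML3 are human acute myeloid leukaemia lines. MV4-11 has a mutant FLT3, a receptor kinase, with an internal tandem duplication. OCI-AML3 has mutant NPM1 and lacks that duplication. AC220 (quizartinib) is an FLT3 inhibitor and DMSO its vehicle. Each disease type is thus represented by a single line, and the labels do not state that replicates are separate cultures, so the p-values rest on library-to-library spread, part or all of which may be technical.

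Libraries held 11419454 to 13328968 counts in MV4-11 AC220, 15041493 to 16918761 in MV4-11 DMSO, 10877198 to 14458640 in OCI-AML3 AC220 and 13013381 to 13455082 in OCI-AML3 DMSO. MV4-11 AC220 replicate 1 stood apart from its group, with chi-square per degree of freedom of 10.0 and 11.2 against the other libraries of that group and 4.36 between those. Replicate 3 stood apart in both OCI-AML3 groups. It had 6.94 and 6.86 in OCI-AML3 DMSO, against 2.86 between the others. In OCI-AML3 AC220 it had 9.02 and 7.33, against 4.57. All 10 markers of the myeloid lineage had counts in every group, and 8 of the 10 were higher after AC220 in MV4-11, with a summed level of 1055.6 to 1335.4 CPM against 683.4 to 718.8 CPM under DMSO. Among lymphoid markers CD3E and CD2 had no count in any library, and the sum of the 6 ranged from 4.94 to 5.77 CPM in MV4-11 AC220 and from 1.67 to 2.56 CPM in MV4-11 DMSO. HBB and HBA1 had no count in any library either. Of 4 epithelial markers EPCAM and KRT19 had none, while their sum was 11.9 to 18.6 CPM in MV4-11 AC220 and 10.4 to 10.8 CPM in MV4-11 DMSO, with KRT8 called higher (0.58, adjusted p = 0.00735). The sum of 3 stromal markers was 5.41 to 8.62 CPM in OCI-AML3 AC220 and 3.27 to 5.57 CPM in OCI-AML3 DMSO. The part that these marker changes or the outlying libraries have in the results below was not tested, except where values without such a library are given.

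Translation starts when eIF2, loaded with GTP and initiator tRNA, joins eIF1, eIF1A, eIF3 and eIF5 on the small ribosomal subunit, while eIF4E, eIF4G and the helicase eIF4A bring in the capped mRNA. eIF2B recharges eIF2 with GTP after each round, and eIF5B joins the large subunit. During elongation eEF1A delivers aminoacyl-tRNA, the eEF1B complex recharges eEF1A, eEF2 moves the ribosome along and eIF5A helps it past slow peptide bonds. In myeloid leukaemia these factors are studied as outputs of the PI3K, mTOR and MAPK pathways that mutant FLT3 drives. Many transcripts of the translation machinery also begin with a C followed by an unbroken run of C and T, the 5′ terminal oligopyrimidine tract through which mTOR and LARP1 control their translation and stability.

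The first bases of the annotated transcripts are shown because the counts of members that rose and fell in MV4-11 are later given by this feature. RefSeq's table of starts on GRCh38.p14 held 42 of the 52 members. A pyrimidine start, defined here as a C at an annotated start followed by at least 4 more C or T, was found for 12 of the 42 (28.6%), namely EEF1A1, EEF1B2, EEF2, EIF2A, EIF2D, EIF2S3, EIF3D, EIF3F, EIF3K, EIF3M, EIF4A2 and EIF4B. The same definition held for 7.68% of the tested genes in that table and for 5.14% of all its genes. Each line below gives 10 bases before the annotated start and 20 from it on, with the pyrimidine run from the start base in capitals. Not all of the 12 are printed. Those that rose in MV4-11 all are, while EIF2D, EIF3D, EIF3K, EIF3M and EIF4B, none of them called there, are left out. The last 3 members have no such run and are shown for contrast. All 3 fell in MV4-11, and EEF1G and EIF2B4, which rose without such a run, are not shown.
EEF1A1, chr6:73521013-73521042, minus strand: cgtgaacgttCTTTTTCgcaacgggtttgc
EEF2, chr19:3985444-3985473, minus strand: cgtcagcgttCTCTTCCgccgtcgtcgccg
EEF1B2, chr2:206159885-206159914, plus strand: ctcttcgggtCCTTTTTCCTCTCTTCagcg
EIF3F, chr11:7987327-7987356, plus strand: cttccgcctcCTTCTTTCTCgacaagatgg
EIF4A2, chr3:186783567-186783596, plus strand: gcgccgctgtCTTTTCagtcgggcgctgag
EIF2A, chr3:150546777-150546806, plus strand: cgagcggtttCTCTTTCCgggacaacatgg
EIF2S3, chrX:24054946-24054975, plus strand: gatttccttcCTCTTTTggcaacatggcgg
EIF1, chr17:41688875-41688904, plus strand: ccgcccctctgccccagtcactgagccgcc
EIF1AX, chrX:20141819-20141848, minus strand: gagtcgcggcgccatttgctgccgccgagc
EIF4E, chr4:98929114-98929143, minus strand: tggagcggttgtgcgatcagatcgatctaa

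The first comparison asked how the factors responded to FLT3 inhibition in the line with mutant FLT3. In MV4-11 much of the initiation side fell: the alpha and beta subunits of eIF2, the scanning factors eIF1 and eIF1A, the cap-binding protein eIF4E and eIF5B were lower after AC220. The elongation factors eEF1G and, by the counts, eEF2, 5 subunits of eIF3 and the helicase paralogue EIF4A2 were higher. Neither eIF3 nor elongation moved as a group. In eIF3 5 of 14 members rose and 5 fell. In elongation 4 of 9 members rose and 3 fell, namely EIF5A, EIF5AL1 and EEF1A2. Of 52 members 12 rose and 23 fell by edgeR's quasi-likelihood test (adjusted p under 0.05), which is 67.3% of the members against 58.3% of all tested genes. The risen members were 23.1% against 31.5% of tested genes, and the fallen members 44.2% against 26.9%. EIF3C and EIF3CL share reads, as do EIF5A and EIF5AL1, so each of these pairs among the fallen is 1 measurement. The median log2 fold change was -0.18 over the members and 0.07 over all tested genes. The AC220 and DMSO libraries did not overlap for 37 of 52 members (71.2%), against 62.4% of tested genes. Without MV4-11 AC220 replicate 1, 12 members rose and 24 fell. In bulk RNA such as this, fewer cells of a type and less RNA per cell cannot be told apart, and CPM (counts scaled to library size with TMM factors) express a transcript relative to the rest of its library.

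**Figure D1:**
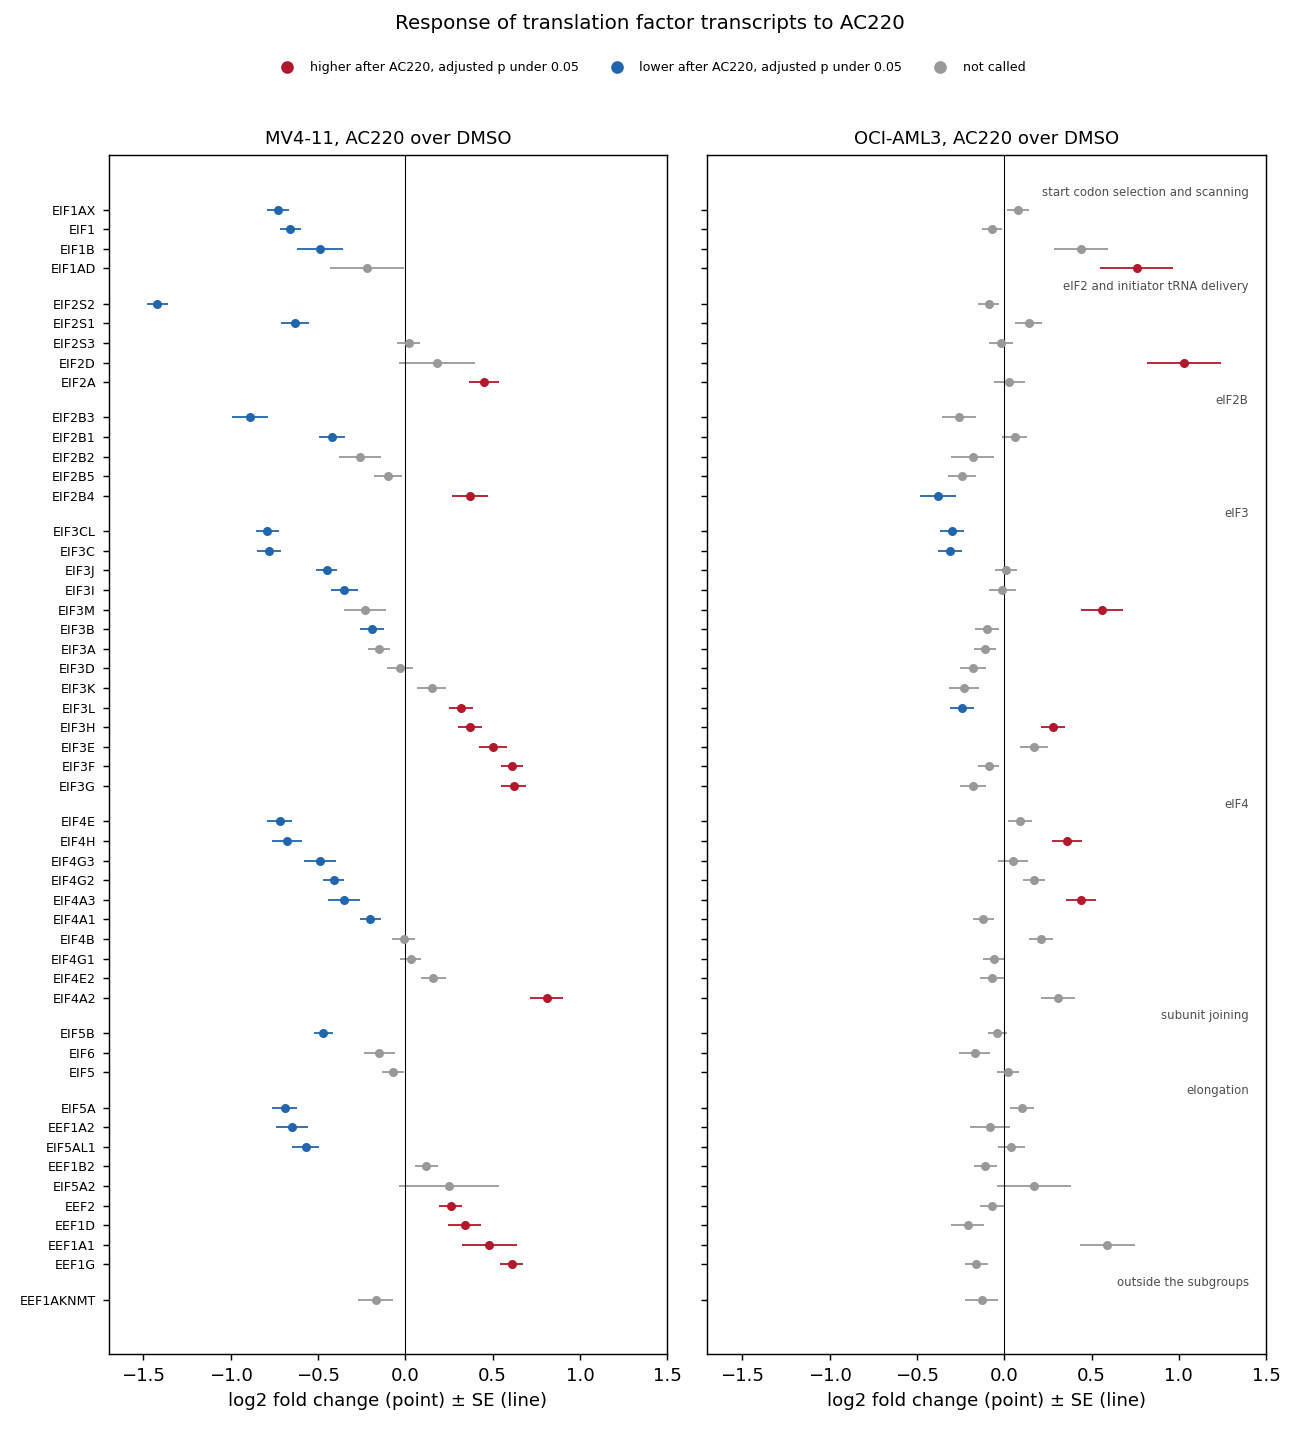
Log2 fold change (horizontal axis, point, with its SE as a line) of each member for AC220 over DMSO, in MV4-11 on the left and in OCI-AML3 on the right, by subgroup. EIF1AY is not drawn. In MV4-11 the values ran from -1.42 for EIF2S2 to 0.81 for EIF4A2, and points in red or blue passed the test.

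Start codon selection and scanning fell as a group in MV4-11, with 4 of 5 members lower, none higher and a median of -0.62, where 26.9% of all tested genes were lower and 31.5% higher. EIF1, which keeps the scanning ribosome open until it meets a start codon, had 657.5, 666.1 and 668.2 CPM with AC220 and 1031, 1070.1 and 1039.4 CPM with DMSO. The groups were far apart relative to their spread, with a log2 fold change of -0.66 (SE 0.0597, adjusted p = 1.21e-10), or 1.58-fold lower. EIF1AX, the X-linked gene of its partner eIF1A, had 196.7, 167.7 and 174.7 CPM with AC220 and 290.2, 300 and 305.6 CPM with DMSO, a log2 fold change of -0.73 (SE 0.0628, adjusted p = 3.78e-11). The highest AC220 library of EIF1AX was the outlying replicate 1, still below every DMSO library. EIF1B, a close paralogue of EIF1, had 51.6, 38.2 and 29.3 CPM with AC220 and 53.9, 53.9 and 59.7 CPM with DMSO. Its log2 fold change was -0.49 (SE 0.133, adjusted p = 0.00367), or -0.73 without replicate 1, whose value nearly reached the DMSO range. EIF1AD, an eIF1A-like protein, did not pass the test (log2 fold change -0.22, adjusted p = 0.39), but was called lower without replicate 1 (-0.57, adjusted p = 0.0262). EIF1AY, the Y-linked copy of eIF1A, is counted among the 4 that fell without its values being given. Together the members other than EIF1AY summed to 889.9 ± 21.7 CPM with AC220 and 1409.1 ± 24.7 CPM with DMSO (SD, n = 3 each).

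The subunits of eIF2 did not move together. EIF2S2, the beta subunit, fell more than any other member in MV4-11, with 422.4, 474.1 and 455 CPM with AC220 against 1230.6, 1196.5 and 1190.5 CPM with DMSO. This was a 2.68-fold difference (log2 fold change -1.42, SE 0.0598, adjusted p = 2.46e-18), and every AC220 library lay far below every DMSO library. EIF2S1, the alpha subunit that the stress kinases phosphorylate, had 48.9, 42.7 and 42.2 CPM with AC220 and 69.9, 65.3 and 72.5 CPM with DMSO (log2 fold change -0.63, SE 0.0794, adjusted p = 7.32e-08). EIF2S3, the gamma subunit that binds GTP and the tRNA, had 192.6, 196.9 and 191.4 CPM with AC220 and 188, 190.4 and 194.6 CPM with DMSO, which overlap (log2 fold change 0.02, adjusted p = 0.824). Counts of EIF2S2 per count of EIF2S3 were accordingly 2.33 ± 0.116 with AC220 and 6.32 ± 0.217 with DMSO (SD, n = 3 each), a ratio of 3′ counts not divided by length and read only between groups. EIF2A, an unrelated factor that can bring initiator tRNA in some settings, rose, with 77.9, 73.7 and 67.9 CPM with AC220 against 48.3, 56.8 and 55.8 CPM with DMSO (log2 fold change 0.45, SE 0.0858, adjusted p = 4.93e-05). EIF2D, which works on ribosomes after termination and in unusual initiation, varied widely among AC220 libraries (26, 18.5 and 14.5 CPM, against 15, 17.7 and 19.7 CPM with DMSO) and did not pass the test (adjusted p = 0.5).

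eIF2B also split by subunit. EIF2B3, the gamma subunit of its catalytic part, had 17.5, 18.9 and 16 CPM with AC220 and 31.8, 32.3 and 33.2 CPM with DMSO, 1.86-fold lower (log2 fold change -0.89, SE 0.103, adjusted p = 1.54e-08). EIF2B1, the alpha subunit of the regulatory part, had 53.4, 50.1 and 49.7 CPM with AC220 and 71.1, 67.6 and 66.9 CPM with DMSO (log2 fold change -0.42, SE 0.0735, adjusted p = 1.36e-05). Both were lower in every AC220 library than in any DMSO library. EIF2B4, the delta subunit, went the other way, with 30.2, 31.7 and 37.6 CPM with AC220 and 26.6, 25.3 and 25.1 CPM with DMSO (log2 fold change 0.37, SE 0.103, adjusted p = 0.00308). Replicate 3 was the highest with AC220, and leaving it out gave 0.22 (adjusted p = 0.0957). EIF2B2 (-0.26, adjusted p = 0.0593) and EIF2B5 (-0.10, adjusted p = 0.277), the beta and the catalytic epsilon subunit, did not pass the test. EIF2B2 was called lower without AC220 replicate 3 (-0.42, adjusted p = 0.00766) or DMSO replicate 2 (-0.36, adjusted p = 0.0204) and in 5 other settings.

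eIF3, the large scaffold that binds the small ribosomal subunit, had 5 members up, 5 down and 4 that did not pass, of 14, with a median of -0.09. These shares lie near the 31.5% higher and 26.9% lower of all tested genes, and EIF3C and EIF3CL, both among the 5 down, are 1 measurement. EIF3C, a core subunit, had 293.1, 337.2 and 346.6 CPM with AC220 and 563.5, 575.4 and 540.1 CPM with DMSO. It was 1.72-fold lower with no overlap between groups (log2 fold change -0.78, SE 0.0682, adjusted p = 5.26e-11). EIF3CL is a near-identical copy whose counts were 0.993 to 1.00 times those of EIF3C in each library, so that for the pair (EIF3CL had 292.7, 334.9 and 344.5 CPM with AC220 and 562.6, 574 and 539.1 CPM with DMSO) which gene the reads came from is uncertain. EIF3J, a loosely bound subunit at the mRNA channel, had 239.1, 262.3 and 238.9 CPM with AC220 and 326.5, 353.5 and 330.8 CPM with DMSO (log2 fold change -0.45, SE 0.0609, adjusted p = 2.73e-07). EIF3I fell by 0.35 (adjusted p = 0.000324) and EIF3B by 0.19 (adjusted p = 0.0206) on the log2 scale, both of the module that also holds EIF3G. The groups of EIF3B overlapped, and its call was lost without any 1 of 4 libraries, MV4-11 DMSO replicates 1 and 2 and AC220 replicates 1 and 2 (adjusted p = 0.0595 to 0.0815), and by limma on the deposited log2 values (-0.10, adjusted p = 0.222).

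EIF3F and EIF3G led the subunits that rose. EIF3F, one of the pair of MPN-domain subunits, had 440.1, 496.8 and 474.9 CPM with AC220 and 317.7, 299 and 306.7 CPM with DMSO (log2 fold change 0.61, SE 0.0622, adjusted p = 1.21e-09). EIF3G, an RNA-binding subunit, had 319.1, 373.8 and 354.3 CPM with AC220 and 227, 235.7 and 219.2 CPM with DMSO (log2 fold change 0.62, SE 0.0732, adjusted p = 2.35e-08). For both, each AC220 library was above each DMSO library. EIF3E, EIF3H and EIF3L, which share the octamer core of the complex with EIF3F, rose by 0.50 (adjusted p = 1.05e-05), 0.37 (adjusted p = 4.26e-05) and 0.32 (adjusted p = 0.000184). EIF3A (-0.15, adjusted p = 0.0503), EIF3D (-0.03), EIF3K (0.15) and EIF3M (-0.23, adjusted p = 0.119) did not pass. EIF3A lay at the threshold and was called lower in 11 of 22 other settings, DESeq2 and limma-voom among them, with -0.24 without AC220 replicate 3 (adjusted p = 0.00534). EIF3M had 245.3 CPM in AC220 replicate 1 and 199.8 and 185.4 CPM in the others, and without replicate 1 it was called lower (-0.36, adjusted p = 0.011). Summed without EIF3CL, eIF3 stood at 5429.6 ± 119.5 CPM with AC220 and 5109.8 ± 66.7 CPM with DMSO (SD, n = 3 each).

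In the eIF4 subgroup, which holds cap-binding and mRNA-unwinding factors, 6 of 10 fell (EIF4A3 among them), 1 rose and 3 did not pass, with a median of -0.28. Of all tested genes 26.9% fell and 31.5% rose. EIF4E, the protein that holds the cap, had 49.4, 48.7 and 53.9 CPM with AC220 and 86.1, 82.3 and 82.5 CPM with DMSO. It was 1.65-fold lower, with a gap between the groups many times their spread (log2 fold change -0.72, SE 0.0726, adjusted p = 9.61e-10). EIF4H, a cofactor of the helicase, had 101.4, 83.6 and 83.2 CPM with AC220 and 135.1, 144.5 and 150.1 CPM with DMSO (log2 fold change -0.68, SE 0.0854, adjusted p = 9.62e-08). The scaffold paralogues split: EIF4G2 (DAP5) fell by 0.41 on the log2 scale (adjusted p = 1.42e-06) and EIF4G3 by 0.49 (adjusted p = 3.81e-05), while EIF4G1, the main scaffold, did not pass (0.03, adjusted p = 0.739). EIF4G1 had 197, 207.6 and 180.8 CPM with AC220 and 188.1, 191 and 195.8 CPM with DMSO, EIF4G2 586.4, 514.5 and 509.3 against 733.1, 700.5 and 708.7 CPM, and EIF4G3 34.6, 32.8 and 33.3 against 43.3, 48.1 and 49.8 CPM. EIF4B, the other helicase cofactor (-0.01), and EIF4E2, a weak cap binder linked to repression (0.16, adjusted p = 0.0597), did not pass. EIF4E2 was called higher in 4 other settings, among them without AC220 replicate 1 (0.23, adjusted p = 0.00604) and on the deposited log2 values (0.26, adjusted p = 0.00952). EIF4E2 had 122.1, 138.7 and 145.6 CPM with AC220 and 120.6, 125.3 and 118.2 CPM with DMSO, so that its ratio to EIF4E was 2.67 ± 0.19 with AC220 and 1.45 ± 0.0626 with DMSO (SD, n = 3 each).

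The helicase paralogues separated. EIF4A2, whose protein is known from work on the CCR4-NOT complex as well as initiation, had 183.7, 141.6 and 138.4 CPM with AC220 and 83.1, 87.8 and 94 CPM with DMSO. It was the member with the greatest rise, 1.75-fold, and no library overlapped (log2 fold change 0.81, SE 0.0937, adjusted p = 5.7e-08). Replicate 1 was the highest, and without it the rise was 0.66 (adjusted p = 1.11e-08). EIF4A1, the main initiation helicase, had 477.1, 507.3 and 493.4 CPM with AC220 and 579.2, 578 and 535.4 CPM with DMSO (log2 fold change -0.20, SE 0.0588, adjusted p = 0.00541). EIF4A3, which sits in the exon junction complex rather than in initiation, had 95.8, 77.4 and 70.4 CPM with AC220 and 102.3, 102.8 and 105 CPM with DMSO (log2 fold change -0.35, SE 0.0905, adjusted p = 0.00197). EIF4A2 made up 23.8 ± 3.43% of the counts of EIF4A1 and EIF4A2 with AC220 and 13.6 ± 1.23% with DMSO in MV4-11, and 11.0 ± 1.08% with AC220 and 8.42 ± 0.591% with DMSO in OCI-AML3 (SD, n = 3 each). The calls on EIF4A1 and EIF4A3 were lost by limma on the authors' deposited log2 values (adjusted p = 0.0778 and 0.0774).

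**Figure D2:**
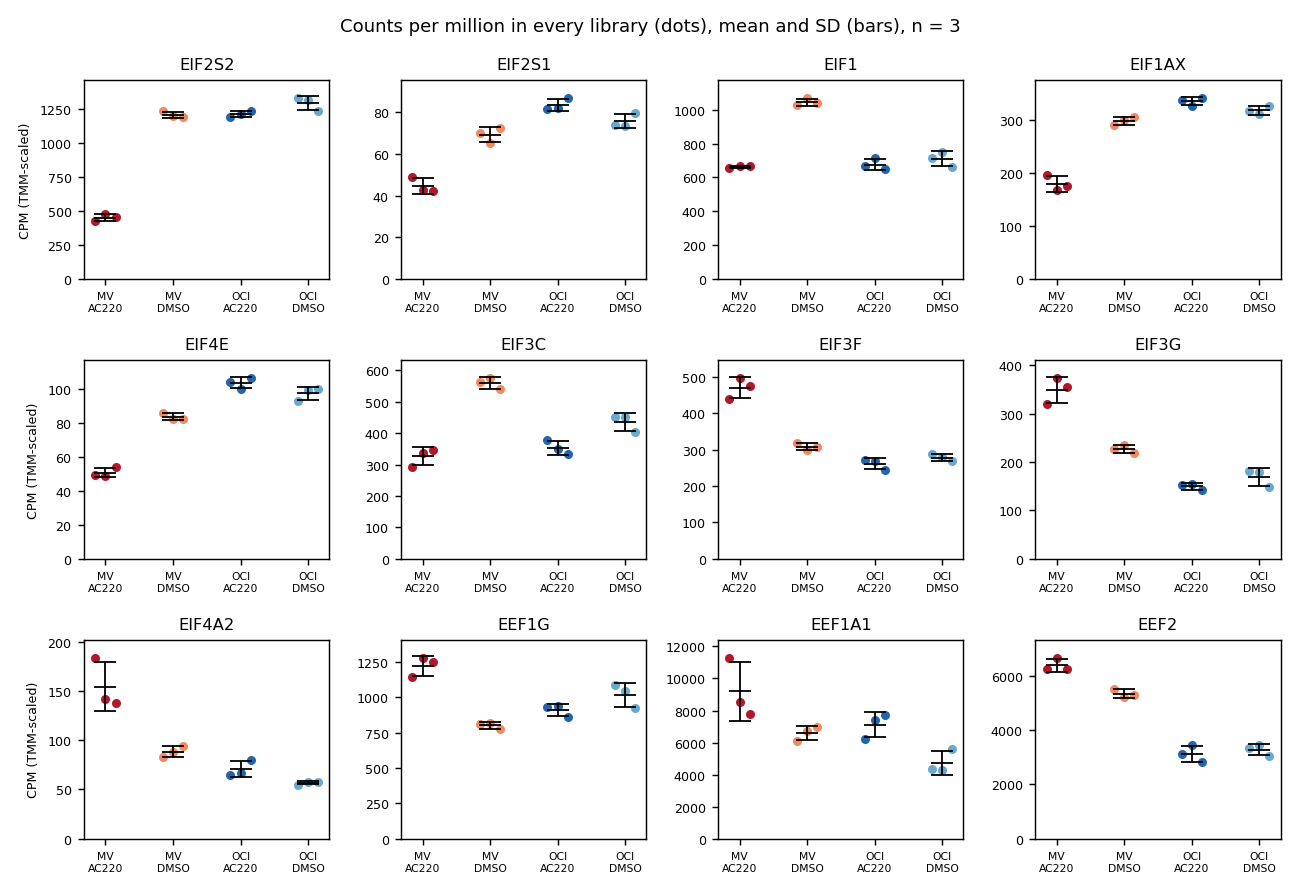
CPM in each library (vertical axes, dots, starting at 0) of 12 members in MV4-11 AC220, MV4-11 DMSO, OCI-AML3 AC220 and OCI-AML3 DMSO, with mean and SD as bars (n = 3). EIF2S2 sits between 422.4 and 474.1 CPM in MV4-11 AC220 and at 1187.8 CPM or more in every other library, and EIF4A2 is highest in MV4-11 AC220.

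Of the 3 factors of subunit joining, EIF5B fell. This GTPase, which brings the ribosomal subunits together, had 601.1, 595.2 and 620.7 CPM with AC220 and 832.6, 835.2 and 849.7 CPM with DMSO (log2 fold change -0.47, SE 0.0552, adjusted p = 2.02e-08). EIF6, which keeps the large subunit from joining early, had 86, 104.2 and 112.2 CPM with AC220 and 118.8, 111.7 and 105.3 CPM with DMSO, which overlap (-0.15, adjusted p = 0.144). Without AC220 replicate 3 it was called lower (-0.29, adjusted p = 0.0136), as it was with the GC correction (-0.24, adjusted p = 0.00749). EIF5, the GTPase activator of eIF2, had 238.6, 240.5 and 256.1 CPM with AC220 and 256.6, 257.3 and 256.6 CPM with DMSO. These lay close together and did not pass the test (-0.07, adjusted p = 0.361).

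In elongation 4 members rose, 3 fell and 2 did not pass, of 9, with a median of 0.25. Of all tested genes 31.5% were higher and 26.9% lower, and EIF5A and EIF5AL1, both among the 3 that fell, are 1 measurement. EEF1G, the gamma subunit of eEF1B, had 1140.1, 1277.1 and 1245.2 CPM with AC220 and 813.8, 813.9 and 771.9 CPM with DMSO. It was 1.53-fold higher between groups, with every AC220 library above every DMSO library (log2 fold change 0.61, SE 0.0653, adjusted p = 3.5e-09). EEF1D, the delta subunit, rose by 0.34 (SE 0.0935, adjusted p = 0.00443), or by 0.20 without AC220 replicate 3 (adjusted p = 0.0725). EEF1B2, the subunit that exchanges the nucleotide, had no overlap between groups but did not pass (0.12, adjusted p = 0.126). EEF2 had 6262.8, 6667.3 and 6261.6 CPM with AC220 and 5527.8, 5232.4 and 5297.8 CPM with DMSO (log2 fold change 0.26, SE 0.0674, adjusted p = 0.00172). This direction held on the counts under every scaling tried but turned on the authors' deposited log2 values, where it was -0.18 (adjusted p = 0.117).

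EEF1A1, the abundant tRNA carrier, was higher with AC220 and much less even among replicates than the others. It had 11281.5, 8541.2 and 7771.6 CPM with AC220 and 6077.4, 6742.8 and 6974.6 CPM with DMSO (log2 fold change 0.48, SE 0.158, adjusted p = 0.0259). The call was lost without AC220 replicate 1 (0.30, adjusted p = 0.0629), without DMSO replicate 1 (adjusted p = 0.084) or 2 (adjusted p = 0.0537), and by limma on the deposited log2 values (0.17, adjusted p = 0.453). It was also lost with no filter on low counts (adjusted p = 0.051), with a replicate block (adjusted p = 0.051) and with the MV4-11 libraries alone (adjusted p = 0.0522). Many processed pseudogenes resemble EEF1A1, and how reads with several positions were counted is not given in the sources used here. In MV4-11 AC220 replicate 1 the deviations of 4275 genes from their group mean correlated with transcript GC content at r = -0.43, and in replicate 2 at 0.42, values given as a description. Their part in the result for EEF1A1 was not tested.

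The other elongation members that moved went down. EIF5A, of the only protein family known to carry hypusine, had 200.5, 224.1 and 188.5 CPM with AC220 and 343.8, 324 and 318 CPM with DMSO (log2 fold change -0.69, SE 0.0709, adjusted p = 1.76e-09). Its near-identical relative EIF5AL1 had 0.597 to 0.67 counts per count of EIF5A in every library and its reads cannot be separated from those of EIF5A. It had 132.9, 147.6 and 126.2 CPM with AC220 and 211.7, 198.1 and 192.1 CPM with DMSO (log2 fold change -0.57, SE 0.0782, adjusted p = 4.75e-07). EIF5A2, the second paralogue, was low in this line, at 1.67, 1.58 and 2.72 CPM with AC220 and 2.15, 1.54 and 1.29 CPM with DMSO, and did not pass (adjusted p = 0.477). EEF1A2, the second eEF1A form, had 62.4, 67.9 and 66.8 CPM with AC220 and 102.3, 103.6 and 103 CPM with DMSO (log2 fold change -0.65, SE 0.0915, adjusted p = 5.33e-07). It made up 0.73 ± 0.16% of the counts of both eEF1A genes with AC220 and 1.54 ± 0.103% with DMSO (SD, n = 3 each). Summed without EIF5AL1, elongation factors stood at 19360.3 ± 1569 CPM with AC220 and 15174.7 ± 239.1 CPM with DMSO, most of it EEF1A1 and EEF2. EEF1AKNMT did not pass (-0.17, adjusted p = 0.162), except without AC220 replicate 3 (-0.27, adjusted p = 0.0426).

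The same exposure in OCI-AML3, whose FLT3 lacks the duplication, gave fewer differences. The largest called fall was smaller (log2 fold change -0.38 for EIF2B4, against -1.42 for EIF2S2 in MV4-11). The largest called rise was not (1.03 for EIF2D, against 0.81 for EIF4A2 in MV4-11). In OCI-AML3 6 members rose and 4 fell, 19.2% of the members against 3.95% of tested genes (11.5% against 3.44% higher, 7.69% against 0.508% lower), with a median of -0.03 against 0 over all tested genes. EIF3C and EIF3CL, both among the 4 that fell, are 1 measurement. The libraries did not overlap for 28 of 52 members (53.8%), against 23.9% of tested genes. Same-numbered AC220 and DMSO libraries of OCI-AML3 deviated together (r = 0.25 to 0.56 over 3 pairs). Other-numbered AC220 and DMSO libraries of this line gave r of -0.46 to 0.27. Over all groups, other-numbered libraries of different groups gave -0.46 to 0.54. With the OCI-AML3 libraries fitted alone and the replicate number as a block, a fit added after seeing the data with 2 residual degrees of freedom, 11 members were higher and 14 lower, 49% of the 51 members it tested against 17.7% of its tested genes (11.5% higher and 6.14% lower). All of the 10 calls were among them (adjusted p at most 0.00223). With the block in the fit on all 12 libraries, 5 were higher and 3 lower (2.68% and 0.395% of all tested genes). The calls on EIF2B4 (adjusted p = 0.0509) and EIF1AD (adjusted p = 0.0574) were lost there. None of the 10 calls held in all 23 other settings tried. Leaving out replicate 1 or replicate 2 of the DMSO group, or replicate 3 of the AC220 group, left 0 calls by edgeR's quasi-likelihood test, with 17 members at an unadjusted p under 0.05 in each case, against 24 with all libraries. In the same fits 13, 15 and 22 of all tested genes were called, against 489 with all libraries, so the loss was not particular to the members. Leaving out AC220 replicate 2 gave 2 higher and 0 lower, with 116 of all genes called. Leaving out DMSO replicate 3 gave 7 higher and 8 lower, with 998 of all genes called. On all libraries DESeq2 called 7 higher and 5 lower (4% and 1.66% of all genes) and limma-voom 7 and 4 (5.05% and 0.815%). Without MV4-11 AC220 replicate 1, which is in neither OCI-AML3 group and enters through the shared filter, scaling, spread and adjustment, 11 were higher and 6 lower (7.05% and 2.02% of all tested genes).

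EIF2D had the largest rise, 2.04-fold, with 26.4, 32.7 and 39.4 CPM with AC220 and 14.4, 13.9 and 20 CPM with DMSO (log2 fold change 1.03, SE 0.214, adjusted p = 0.025). EIF1AD had 8.3, 9.93 and 12.5 CPM with AC220 and 4.59, 6.15 and 7.45 CPM with DMSO (log2 fold change 0.76, SE 0.209, adjusted p = 0.0374). EIF3M had 199.7, 246 and 255 CPM with AC220 and 148.5, 148.2 and 179.9 CPM with DMSO (log2 fold change 0.56, SE 0.12, adjusted p = 0.0262). In these members replicate 3 was the highest of both groups, and no library of AC220 fell into the DMSO range. EIF4A3 had 153.2, 167.5 and 183.6 CPM with AC220 and 114.3, 123.8 and 133.1 CPM with DMSO (log2 fold change 0.44, SE 0.0882, adjusted p = 0.00965), the smallest p of the 10. EIF4H had 129.2, 126.7 and 155.1 CPM with AC220 and 102.8, 101.5 and 115 CPM with DMSO (log2 fold change 0.36, adjusted p = 0.0182). EIF3H had 408.6, 441.2 and 489 CPM with AC220 and 371.3, 363.2 and 370.5 CPM with DMSO (log2 fold change 0.28, adjusted p = 0.0259). EIF4A3 and EIF4H thus rose in OCI-AML3 and fell in MV4-11, and EIF3H rose in both.

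The members that fell in OCI-AML3 did so by less than 0.4 on the log2 scale. EIF2B4 had 27.5, 26.4 and 25.4 CPM with AC220 and 36.5, 36.5 and 30.4 CPM with DMSO (log2 fold change -0.38, SE 0.103, adjusted p = 0.033). EIF3C, together with EIF3CL (-0.30), had 376.9, 347.9 and 332.4 CPM with AC220 and 452.8, 452.2 and 403.4 CPM with DMSO (log2 fold change -0.31, SE 0.068, adjusted p = 0.0149). EIF3L had 417.1, 426.7 and 377.7 CPM with AC220 and 499.9, 512.2 and 430.1 CPM with DMSO (log2 fold change -0.24, SE 0.0686, adjusted p = 0.0448). Here replicate 3 was the lowest of its group in both groups for each of the members named. Deviations from the group mean correlated with GC content at r = -0.29 in AC220 replicate 3 and -0.24 in DMSO replicate 3, and the AC220 log2 fold changes of 4275 genes at -0.26 in this line and 0.06 in MV4-11, as descriptions. With a correction for GC content 6 members were higher and 3 lower, with 600 of all genes called. With both libraries numbered 3 left out 3 were higher and 3 lower, with 243 of all genes called. EEF1A1 had 6224.3, 7418 and 7715.4 CPM with AC220 and 4323.8, 4279.8 and 5582.4 CPM with DMSO in this line, apart but not called (0.59, adjusted p = 0.0703), and called in the paired fit on this line (adjusted p = 2.93e-06).

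The test of the difference between the 2 lines' AC220 effects called 12 members higher and 23 lower in MV4-11 than in OCI-AML3, 67.3% of the members against 46.7% of tested genes (23% higher and 23.7% lower). The 23 include EIF3C with EIF3CL and EIF5A with EIF5AL1, each pair 1 measurement. EIF2S2 had the most negative difference of those called, with -1.42 in MV4-11 and -0.09 in OCI-AML3 (difference -1.33, SE 0.0831, adjusted p = 6.68e-14). EIF4H (-1.04), EIF1B (-0.93), EIF4E (-0.81), EIF1AX (-0.81) and EIF5A (-0.78) also differed, each with adjusted p under 0.001. EIF3G (0.80), EEF1G (0.77), EIF2B4 (0.75) and EIF3F (0.70) differed the other way. EIF2B4 fell in OCI-AML3 and rose in MV4-11. The difference did not pass for EEF1A1 (-0.11, adjusted p = 0.724), EIF4A1 (-0.07, adjusted p = 0.485) or EIF3H (0.10, adjusted p = 0.45), whose values had the same sign in both lines.

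Between the lines themselves, 19 members were higher and 16 lower in MV4-11 than in OCI-AML3 under DMSO (67.3% of members against 65.5% of tested genes, of which 32.1% were higher and 33.4% lower). Under AC220 17 were higher and 22 lower (75% against 76.2% of tested genes, of which 36.7% were higher and 39.5% lower). These shares were near those of all tested genes, and the AC220 and DMSO groups of a line are shared with the comparisons above. EEF1A2, expressed at a high level mainly in muscle and neurons in the body, separated the lines widely, with 102.3, 103.6 and 103 CPM in MV4-11 and 13, 15.6 and 18.6 CPM in OCI-AML3 under DMSO (log2 fold change 2.71, SE 0.103, adjusted p = 1.5e-19). EIF1B had 53.9, 53.9 and 59.7 CPM in MV4-11 and 13.4, 15.1 and 13.6 CPM in OCI-AML3 under DMSO (log2 fold change 1.99, adjusted p = 1.08e-10). Under DMSO both were several-fold higher in every MV4-11 library, and under AC220 EIF1B had 51.6, 38.2 and 29.3 CPM in MV4-11 and 17.9, 20.7 and 18.6 CPM in OCI-AML3. EIF5A2 was lower in MV4-11, with 2.15, 1.54 and 1.29 CPM against 5.67, 5.7 and 5.86 CPM in OCI-AML3 under DMSO (log2 fold change -1.78, SE 0.245, adjusted p = 2.63e-07). EIF4G3 was also lower in MV4-11 (-0.97, adjusted p = 4.18e-11), and EIF5 (0.79), EIF3K (0.74), EEF2 (0.70) and EIF2S3 (0.59) were higher there. EIF1 was 1.47-fold higher in MV4-11 under DMSO (0.56, adjusted p = 2.25e-09) and did not differ by the test under AC220 (-0.03, SE 0.0596, adjusted p = 0.696). EIF2S2 did not pass under DMSO (-0.10, adjusted p = 0.139) and was 2.69-fold lower in MV4-11 under AC220 (-1.43, adjusted p = 7.11e-19).

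**Figure D3:**
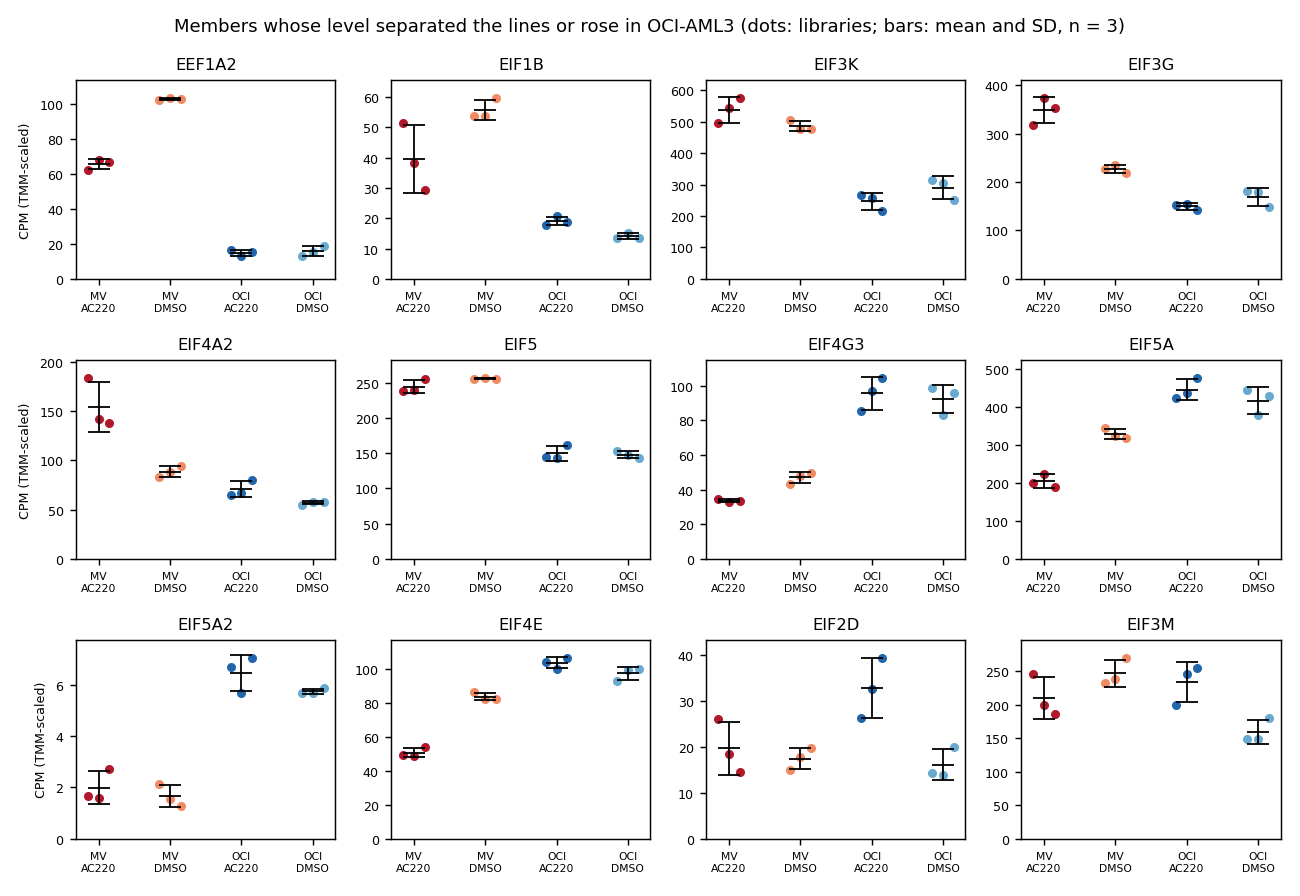
CPM in each library (vertical axes, dots, starting at 0) of 12 members chosen for a difference between the lines or a rise in OCI-AML3, in MV4-11 AC220, MV4-11 DMSO, OCI-AML3 AC220 and OCI-AML3 DMSO, with mean and SD as bars (n = 3). EEF1A2 stands at 102.3 to 103.6 CPM in MV4-11 DMSO and at 13 to 18.6 CPM in OCI-AML3 DMSO.

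The MV4-11 values were then read by the starts shown above. Of the 12 with a pyrimidine start 5 rose, none fell and 7 did not pass, with a median of 0.16, whereas of the 30 others with an entry 2 rose, 20 fell and 8 did not pass, with a median of -0.42. Over all tested genes, the 759 with a pyrimidine start had a median of 0.17, 39.8% higher and 21.6% lower, and the 9118 others a median of 0.05, 30.4% higher and 27.5% lower. The risen members with such a start were EIF4A2, EIF3F, EEF1A1, EIF2A and EEF2. EEF1G and EIF2B4 rose without one. In OCI-AML3 the medians were 0.00 for the 12 and 0.02 for the 30, with 2 higher and 0 lower among the 12 and 3 higher and 2 lower among the 30. The division was looked for after the values had been seen and has no test, an annotated start need not be the start used in these cells, and 10 members were not in the table: EEF1A2, EEF1AKNMT, EEF1D, EIF2S2, EIF3A, EIF3CL, EIF3E, EIF3G, EIF3H and EIF3L. Of these, EEF1D, EIF3E, EIF3G, EIF3H and EIF3L rose in MV4-11, EEF1A2, EIF2S2 and EIF3CL fell, and EEF1AKNMT and EIF3A did not pass. Their starts are not known here, so the division leaves out many of the risen members.

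**Figure D4:**
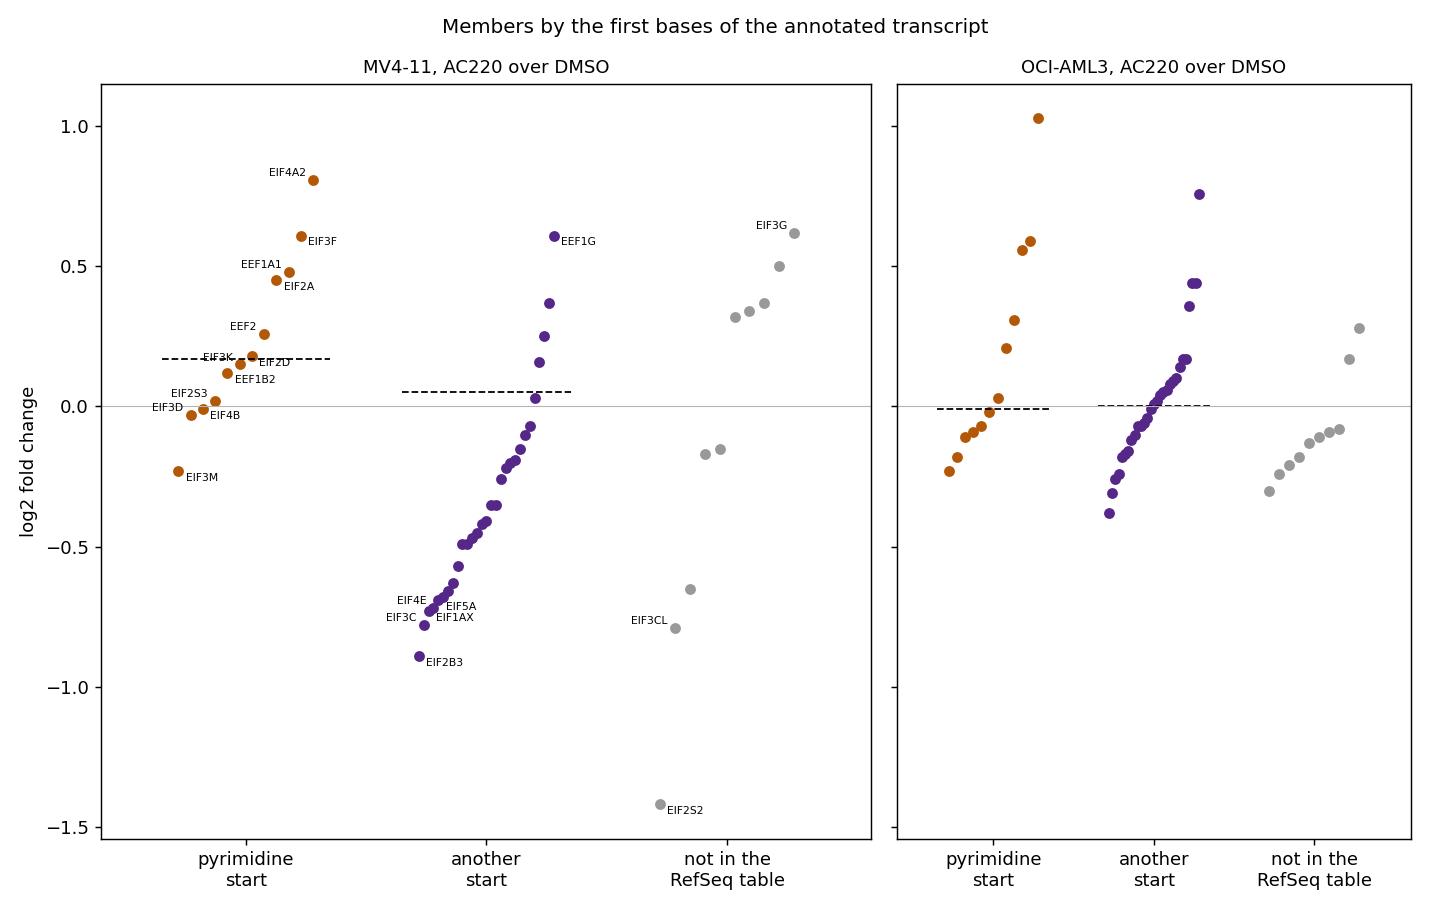
Log2 fold change (vertical axis) of each member other than EIF1AY for AC220 over DMSO, by whether its annotated transcript has a pyrimidine start, another start, or no entry in the RefSeq table, in MV4-11 (left) and OCI-AML3 (right). Dashed lines mark the median of all tested genes with such a start (0.17 in MV4-11) and with another start (0.05 in MV4-11).

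Promoters were also searched for the hexamer CACGTG, which reads the same on both strands and is the core of the E-box bound by MYC and related factors. In the window from 250 bases before to 50 after an annotated start it stood in 10 of 42 members (23.8%), against 12.8% of tested genes. The 10 were EIF4E, EIF4H, EIF4A3, EIF2B3 and EIF1B, which fell in MV4-11, EIF3F, which rose, and EIF3K, EIF4B, EIF4G1 and EIF5A2, which did not pass. Whatever their promoter, 44.2% of all 52 members and 26.9% of all tested genes fell in MV4-11. The share among tested genes with the hexamer was not computed. EIF4E held 2 copies, 225 and 72 bases before its start, shown here in capitals because EIF4E fell in MV4-11 and did not pass in OCI-AML3.
EIF4E, chr4:98929333-98929378, minus strand: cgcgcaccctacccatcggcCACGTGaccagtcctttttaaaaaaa
EIF4E, chr4:98929180-98929225, minus strand: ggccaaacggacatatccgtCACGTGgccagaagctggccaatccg
The motif TGATGNAA, of the C/EBP-ATF response element, was in none of the 42 windows on either strand, against 2.78% of tested genes. A match or its absence describes these letters in this window and no more.

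Regulators of the factors were also measured, and their counts stand against 31.5% higher and 26.9% lower among all tested genes. Of 17 tested regulators 3 rose, 8 fell and 6 did not pass in MV4-11, with a median of -0.20. EIF4EBP1, the mTOR-controlled protein that holds eIF4E away from eIF4G, had 31.4 ± 2.65 CPM with AC220 and 106.3 ± 5.84 CPM with DMSO (SD, n = 3 each; log2 fold change -1.76, SE 0.0921, adjusted p = 4.49e-16). LARP1, which binds pyrimidine-start mRNAs, fell by 0.60 on the log2 scale (adjusted p = 1.16e-09), and PPP1R15A, the inducible subunit of the phosphatase of eIF2 alpha, fell by 0.78 (adjusted p = 4.77e-08). EIF4EBP1 fell further than any member, and none of these 3 passed the test in OCI-AML3. The regulators that rose were PDCD4, an inhibitor of eIF4A (0.58, adjusted p = 4.89e-08), EIF2AK4, the kinase GCN2 (0.53, adjusted p = 2.2e-06), and MKNK2, a kinase of eIF4E (0.39, adjusted p = 6.07e-05).

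Poly(A)-binding, termination and recycling genes had 2 higher and 7 lower of 9 tested in MV4-11, again against 31.5% and 26.9% of all tested genes. ETF1, the release factor that reads stop codons, fell by 0.54 (adjusted p = 3.99e-07) and DENR, a recycling factor, by 0.49 (adjusted p = 6.64e-07) on the log2 scale. PABPC1, the main cytoplasmic poly(A)-binding protein, rose to 4456.6 ± 396.4 CPM with AC220, against 2921.6 ± 219.6 CPM with DMSO (log2 fold change 0.61, adjusted p = 4.32e-07), and also rose in OCI-AML3 (0.31, adjusted p = 0.0285). Of 12 enzymes that modify elongation factors 1 rose, 7 fell and 4 did not pass. DPH2, of diphthamide synthesis on eEF2, fell by 0.42 (adjusted p = 0.00153), EEF1AKMT2 by 0.43 (adjusted p = 0.00458), and DPH5 rose by 0.34 (adjusted p = 0.00634). Of 9 mitochondrial translation factors 3 rose, 3 fell and 3 did not pass, shares near those of all tested genes. The mitochondrial elongation factors GFM1 and TUFM fell by 0.55 (adjusted p = 1.54e-06) and 0.67 (adjusted p = 2.75e-05), and GFM2, which recycles mitochondrial ribosomes, rose by 0.37 (adjusted p = 4.97e-05).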

How the data were processed

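RNA of the 12 libraries was DNase-treated and made into Lexogen QuantSeq 3′ libraries, per the labels' protocols. The authors deposited a table of raw counts by gene symbol and, in a second file, normalised expression on a log2 scale for 11075 genes, whose name mentions voom and limma. Per the submitters' processing notes, the aligner HISAT2 2.0.4, the counter featureCounts of Subread 2.0.0 and the build hg19 were in use. They also list cutadapt 1.9.1, and limma 3.42.2 under R 3.6.1. Annotation, strand setting, handling of reads with several positions and filters are not given in the sources used here, so reads of close paralogues and overlapping genes are uncertain. A row with no symbol (0.00343% to 0.00503% of counts) was left out.

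Counts left by filterByExpr (12392 genes) were scaled by TMM and tested with edgeR 4.0.16 in R 4.3.3 (quasi-likelihood F test, robust, a mean per group, 8 residual degrees of freedom). The p-values were adjusted by Benjamini and Hochberg's method over all 12392 genes, with a threshold of 0.05. SE is the log2 fold change divided by the square root of F. The common biological coefficient of variation was 8.28%. The members, the lists and the named genes were chosen with earlier results of these data known. Values per library are given for the 3 members with the smallest p in each subgroup in MV4-11, those called in OCI-AML3 and the paralogue sets, and further members were named after their values were seen. In the other lists the 3 smallest p are named. EIF1AY is Y-linked and is counted without values. The procedure was tested on simulated counts.

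No libraries were identical, and chi-square per degree of freedom within groups was 2.86 to 11.2. The alternatives tried were a filter of 50 counts in 3 libraries or none, median-ratio scaling, DESeq2 1.42.0, limma-voom and limma 3.58.1 on the deposited log2 values, a replicate block, the compared libraries alone and leaving out each library. A GC correction, leaving out both OCI-AML3 libraries numbered 3, and a fit of the OCI-AML3 libraries alone with a replicate block were added after seeing the data. Starts and promoter windows (250 bases before to 50 after) come from RefSeq on GRCh38.p14, a build other than that of the reads, and were matched by symbol.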

Additional observations from a re-analysis of the deposited data

Results flagged for a closer look

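The AC220 effect differed between MV4-11 and OCI-AML3, by a test of the difference itself, for 35 members (67.3%), against 46.7% of tested genes. For EIF3K and EEF1B2 the effect was called in neither line. For EIF2D, EIF1AD and EIF3M it was called in OCI-AML3 alone, as a rise that did not hold in every setting. Each value is the log2 fold change of AC220 over DMSO in MV4-11 minus that in OCI-AML3, with its adjusted p from edgeR's quasi-likelihood test, over 3 libraries a group.

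In start codon selection and scanning the difference was -0.98 for EIF1AD (adjusted p = 0.00828), -0.93 for EIF1B (adjusted p = 0.000832), -0.81 for EIF1AX (adjusted p = 9.68e-09) and -0.58 for EIF1 (adjusted p = 1.36e-06). In eIF2 and the delivery of initiator tRNA the difference was -1.33 for EIF2S2 (adjusted p = 6.68e-14), -0.85 for EIF2D (adjusted p = 0.0372) and -0.77 for EIF2S1 (adjusted p = 1.24e-06). It was 0.42 for EIF2A (adjusted p = 0.00602) on the positive side. In eIF2B the difference was -0.64 for EIF2B3 (adjusted p = 0.000488) and -0.48 for EIF2B1 (adjusted p = 0.00033). It was 0.75 for EIF2B4 (adjusted p = 9.86e-05) on the positive side. In eIF3 the difference was -0.79 for EIF3M (adjusted p = 0.00186), -0.48 for EIF3CL (adjusted p = 0.000117), -0.47 for EIF3C (adjusted p = 0.000166), -0.46 for EIF3J (adjusted p = 6.4e-05) and -0.34 for EIF3I (adjusted p = 0.0118). It was 0.33 for EIF3E (adjusted p = 0.0202), 0.38 for EIF3K (adjusted p = 0.0114), 0.56 for EIF3L (adjusted p = 2.01e-05), 0.70 for EIF3F (adjusted p = 1.39e-07) and 0.80 for EIF3G (adjusted p = 2.72e-07) on the positive side.

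In eIF4 the difference was -1.04 for EIF4H (adjusted p = 3.83e-08), -0.81 for EIF4E (adjusted p = 1.1e-07), -0.79 for EIF4A3 (adjusted p = 1.16e-05), -0.58 for EIF4G2 (adjusted p = 2.58e-06) and -0.54 for EIF4G3 (adjusted p = 0.000674). It was 0.50 for EIF4A2 (adjusted p = 0.00401) on the positive side. In subunit joining the difference was -0.43 for EIF5B (adjusted p = 3.56e-05). In elongation the difference was -0.78 for EIF5A (adjusted p = 1.68e-07), -0.61 for EIF5AL1 (adjusted p = 4.08e-05) and -0.56 for EEF1A2 (adjusted p = 0.0023). It was 0.23 for EEF1B2 (adjusted p = 0.0413), 0.33 for EEF2 (adjusted p = 0.00574), 0.56 for EEF1D (adjusted p = 0.00215) and 0.77 for EEF1G (adjusted p = 5.32e-08) on the positive side. EIF3C and EIF3CL share reads, as do EIF5A and EIF5AL1, so each pair is 1 measurement. No cause of these differences was tested.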

How the results depend on the processing

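In MV4-11, 27 of the 34 called members other than EIF1AY kept their call in all 22 other settings. The other 7 were EEF1A1, EEF2, EIF3B, EIF4A1, EIF4A3, EEF1D and EIF2B4. Of the 17 not called in MV4-11, 8 were called in some setting, and of 41 in OCI-AML3, 16. EEF2 turned to -0.18 by limma on the deposited log2 values, a table normalised in another way, and the cause was not tested. In that setting the MV4-11 median was -0.14, the OCI-AML3 median -0.02, and 0 members were called higher and 0 lower in OCI-AML3, with 18 at an unadjusted p under 0.05. Of all genes 1 was called in OCI-AML3 in that setting. With the compared libraries alone the MV4-11 median was -0.23 and 10 members were higher in OCI-AML3, where 5% of tested genes were higher. The OCI-AML3 median was -0.06 with median-ratio size factors and by DESeq2, and -0.01 with the GC correction. With both OCI-AML3 libraries numbered 3 left out, 3 members were higher in OCI-AML3 and the median was -0.05. Among members not called, 20 values changed sign in some setting.

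Leaving out each library in turn gave 10 to 12 members higher and 22 to 27 lower in MV4-11, with a median of -0.24 to -0.13. In OCI-AML3 it gave 0 to 11 higher and 0 to 8 lower, with a median of -0.06 to -0.01 and 13 to 1136 of all genes called. The difference between lines had 10 to 13 higher and 22 to 24 lower. MV4-11 against OCI-AML3 had 16 to 20 higher and 11 to 16 lower under DMSO, and 16 to 19 higher and 20 to 25 lower under AC220.

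The labels do not say that replicate numbers pair libraries. The deviations of 18 same-numbered pairs from different groups correlated at r of -0.53 to 0.56, 8 of them above 0.1. Those of 36 other-numbered pairs correlated at -0.46 to 0.54. Within a line, same-numbered AC220 and DMSO libraries correlated at -0.44 to -0.11 in MV4-11 and at 0.25 to 0.56 in OCI-AML3. With OCI-AML3 libraries alone and a replicate block, 11 members were higher and 14 lower there. On all 12 libraries a replicate block gave 11 higher and 23 lower in MV4-11, 5 and 3 in OCI-AML3, 12 and 22 for the difference, 19 and 16 between lines under DMSO and 17 and 22 under AC220. Of the members with values given, EIF5A2, EIF1AD and EIF2D had the widest errors of the AC220 effect in each line. These had few counts, but EEF1A1, with the most counts, came next (SE 0.158 in each line).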
